A study of Mus musculus with 18 samples.

Results

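Iron handling in the mouse brain was followed through 10 genes, the transferrin carrier Trf, its receptor Tfrc, the transporters Slc11a2 and Slc11a1, the ferritin subunits Fth1 and Ftl1, the exporter Slc40a1, the ferroxidase Cp, the heme oxygenase Hmox1 and the hepcidin gene Hamp. They were taken by gene symbol from a count table of 36172 genes, and all 10 were listed. Of the 14804 genes that passed the filter on low counts, which asked for over 20 normalised counts in every library of at least 1 group, 9 were iron genes. Each of these 9 was above that level in all 17 libraries used, and Hamp did not pass. In the table's mm10 coordinates the uptake genes were Trf (chr9:103208876-103230286), Tfrc (chr16:32608896-32632794), Slc11a2 (chr15:100387900-100423055) and Slc11a1 (chr1:74375203-74386051). The ferritin genes were Fth1 (chr19:9982646-9985111) and Ftl1 (chr7:45457944-45459886), and the others were Slc40a1 (chr1:45908070-45925594), Cp (chr3:19957054-20009750), Hmox1 (chr8:75093618-75100593) and Hamp (chr7:30942369-30944017).

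RNAseq libraries came from Cx3cr1-Cre/Ert2+; NuTRAP+ mice given tamoxifen at about 3 months of age, so that an EGFP-tagged ribosomal protein was made in cells that had expressed Cx3cr1, which in brain are mainly microglia and also macrophages at the brain borders. At 3 to 4 weeks after tamoxifen the mice received LPS (lipopolysaccharide from the wall of Gram-negative bacteria, 5 mg/kg) or PBS as vehicle, and a brain hemisphere was taken 24 h later. The lysate gave the input, which stands for all cells of the tissue, and ribosomes captured with an anti-GFP antibody gave the positive fraction. The groups were Input PBS, Input LPS and Positive PBS with 4 libraries each and Positive LPS with 5, and 1 further Input LPS library held only 1250 counts and was left out. All mice of all groups carried both transgenes and had been given tamoxifen. The 4 PBS animals were 2 females and 2 males, and the 5 LPS animals were 4 females and 1 male. The tag marks every cell type that expresses Cx3cr1 at the time of tamoxifen, not microglia alone.

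Cells take up iron bound to transferrin through the transferrin receptor, release it from endosomes through divalent metal transporters, and store the surplus in a shell of heavy and light ferritin chains. Ferroportin, the product of Slc40a1, is the known cellular iron exporter, and it works with ferroxidases such as ceruloplasmin and is degraded when the hormone hepcidin binds it. In bacterial inflammation macrophages are known to retain iron, and the messengers of several of these genes are also controlled after transcription by iron regulatory proteins, which bind a hairpin called the iron-responsive element.

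Such hairpins were looked for in the untranslated regions of the 10 genes, because messengers of Fth1, Ftl1, Slc40a1 and Tfrc, and a messenger form of Slc11a2, are known to carry them and their values below are read in part from ribosome-bound RNA. The pattern asked for was C, 5 bases, the loop CAGTG, 1 base, and 5 bases that pair with the first 5. It was present in the 5′ region of Fth1, Ftl1 and Slc40a1 and at 4 places in the 3′ region of Tfrc. Among all genes it was found in 0.14% of 19977 genes with a 5′ region and in 0.61% of 20814 genes with a 3′ region. A match describes the letters only. No match was found for Slc11a2, which says only that this pattern is not in its annotated regions, not that the gene lacks an element. The sequences are given below 5′ to 3′ as DNA of the gene's strand (GENCODE M21, GRCm38, the same build as mm10), with the loop in capitals.
Fth1 5′ region, chr19:9982732-9982761, plus strand: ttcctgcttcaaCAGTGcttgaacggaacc
Ftl1 5′ region, chr7:45459778-45459807, minus strand: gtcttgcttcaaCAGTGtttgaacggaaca
Slc40a1 5′ region, chr1:45925464-45925493, minus strand: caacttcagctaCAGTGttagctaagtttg
Tfrc 3′ region, chr16:32631219-32631248, plus strand: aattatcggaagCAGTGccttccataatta
Tfrc 3′ region, chr16:32631598-32631627, plus strand: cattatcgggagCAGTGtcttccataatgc
Tfrc 3′ region, chr16:32631663-32631692, plus strand: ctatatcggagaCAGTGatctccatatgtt
Tfrc 3′ region, chr16:32631710-32631739, plus strand: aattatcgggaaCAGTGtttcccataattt

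Library totals lay between 22968834 and 35123335 estimated counts. The 10 microglia markers, Cx3cr1, Tmem119 and P2ry12 among them, were detected in every library and summed to 11037 to 14091 normalised counts in Input PBS against 193121 to 237207 in Positive PBS, and to 10434 to 14721 in Input LPS against 156380 to 216534 in Positive LPS. The positive fraction also held RNA of other cells. The 8 neuron markers summed to 194639 to 221528 in Positive PBS and 148737 to 200102 in Positive LPS, about as high as in input (188043 to 198071 with PBS and 172135 to 185867 with LPS). In PBS animals their median log2 difference of positive over input was 0.03, against -0.34 for the 8 astrocyte markers, -2.39 for oligodendrocyte and 1.45 for endothelial markers. The part of such RNA in the values of the positive fraction was not tested. In Positive LPS the library of animal 270 stood apart in several iron genes, and results that rest on it are given with and without it. These are bulk libraries, so fewer cells of a type and less RNA per cell cannot be told apart. In the data, 3 listed iron genes that are known in brain or in all cells, Bmp2, Bmpr2 and Alad, were at 0 in all 17 libraries, so a listed 0 was not read as absence.

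The first question was how iron genes responded to LPS in the positive fraction and in whole tissue. In the positive fraction 8 of the 9 tested iron genes were called, at an adjusted p under 0.05 and a log2 fold change beyond 0.32 in size. The genes Tfrc, Slc11a2, Slc11a1, Fth1, Cp and Hmox1 rose, Trf and Slc40a1 fell, and Ftl1 was not called. Over all genes tested 33.8% were called there, 19.0% higher and 14.9% lower, and the median log2 difference was 0.86 over the 9 iron genes and 0.01 over all genes. In input 4 of the 9 were called, all higher (Tfrc, Slc11a1, Cp and Hmox1), where 12.4% of all genes were called, 7.16% higher and 5.26% lower. There the median log2 difference was 0.18 for the iron genes and 0.00 for all genes. The iron genes were chosen with earlier results of these data known. Here and below, such shares and medians therefore describe them and are not an independent test. The LPS effect itself differed between the fractions for 2 of the 9, Fth1 and Slc11a2, against 6.88% of all genes, 5.46% with the larger value in the positive fraction and 1.42% with the smaller. This main model did not pair the libraries of an animal. With the animal as a replicate block, Slc11a1 was called beside these 2, and 1915 of all genes were called for the difference, against 1018. Without both libraries of animal 270, a choice made after seeing the data, 8 of 9 were called in the positive fraction, 5 in input and 4 for the difference. Slc40a1 was added in input, and Slc40a1 and Slc11a1 in the difference. The share of all genes in that refit is not given here, so these counts are not read as a result about the iron genes. Leaving out single libraries moved the number of all genes called for the difference between 749 and 1263.

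**Figure D1:**
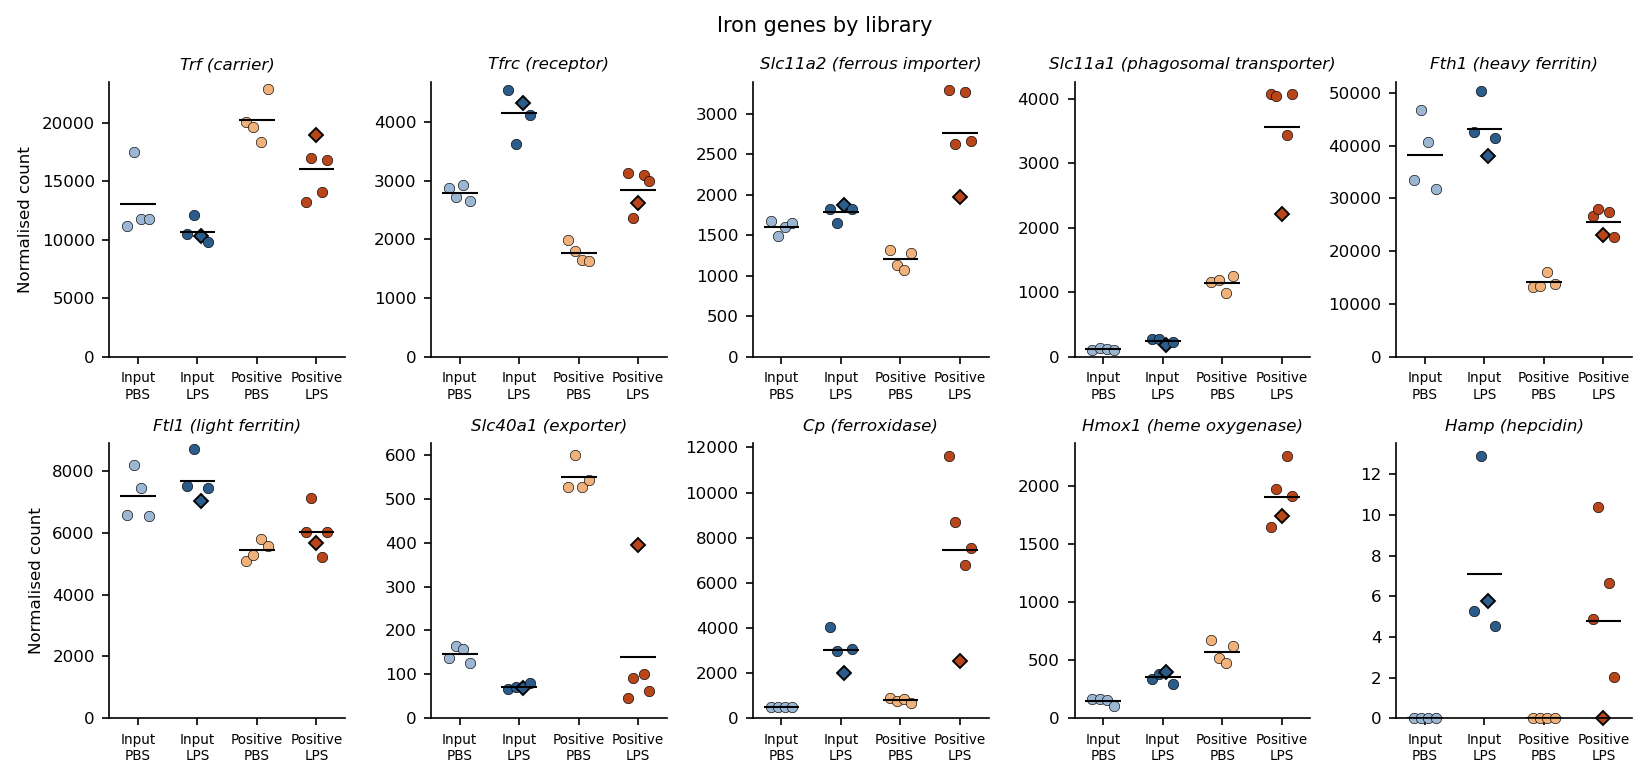
Normalised count of each iron gene in every library (y axis, linear, from 0), by group on the x axis; horizontal lines are group means and diamonds are the libraries of animal 270. In Positive LPS the value of animal 270 is the highest for Slc40a1 (394 normalised counts) and the lowest for Cp (2530.3), Slc11a1 (2211) and Slc11a2 (1972).

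**Figure D2:**
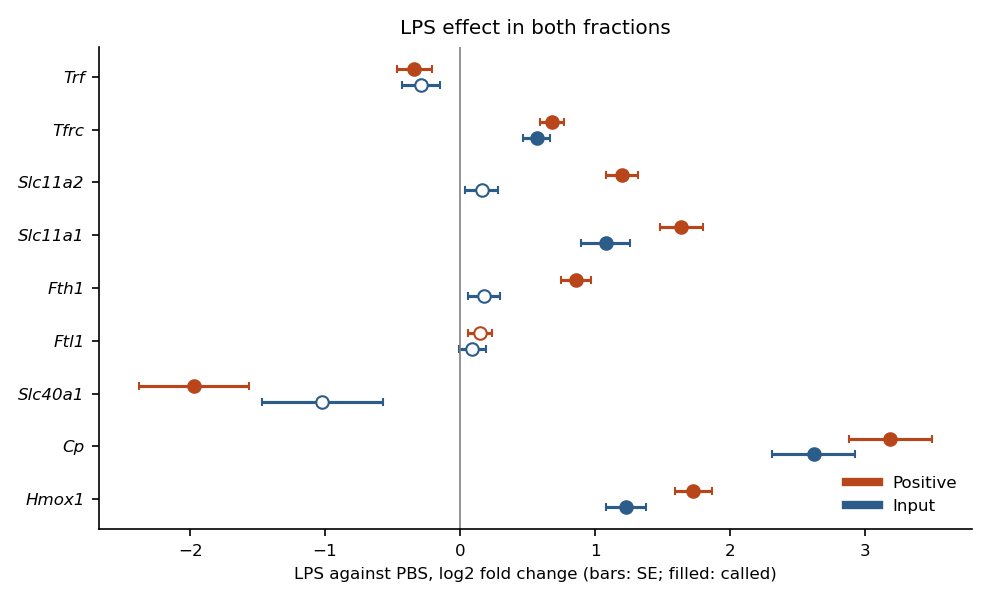
Fitted log2 fold change of LPS against PBS (x axis) for the 9 tested iron genes (y axis), in the positive fraction and in input, with bars for the SE and filled points for called changes. Fth1 (0.86 against 0.18) and Slc11a2 (1.20 against 0.16) differ between the fractions by the test of the difference.

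Among the uptake genes, Tfrc rose in both fractions. Tfrc encodes the transferrin receptor, which carries iron-loaded transferrin into endosomes. The 4 Positive PBS libraries held 1995, 1799.8, 1655 and 1625 normalised counts, and the 5 Positive LPS libraries held 3139, 2370.2, 2619.5, 3099.6 and 2994. In Input PBS the values were 2873, 2721, 2934 and 2657, and in Input LPS 4546, 3623, 4322 and 4124. Every LPS library lay above every PBS library of its fraction. The log2 fold change was 0.68 for positive libraries (SE 0.09, edgeR adjusted p = 1.43e-05), and input gave 0.57 (SE 0.10, edgeR adjusted p = 0.000455). The difference of these effects was 0.11 (SE 0.13, edgeR adjusted p = 0.704), and it was not called. In order of level the groups ran Input LPS, Positive LPS, Input PBS and Positive PBS, and the ranges of Positive LPS and Input PBS overlapped.

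Slc11a2 encodes divalent metal transporter 1, the importer of ferrous iron at the endosome and the cell surface. It rose in positive libraries, was not called in input, and its difference between fractions was itself called. Positive PBS held 1321, 1129.9, 1076 and 1276 normalised counts, and Positive LPS held 3286, 2624, 1972, 3271 and 2657.5, the value of 1972 being that of animal 270. The groups did not overlap, and the log2 fold change was 1.20 (SE 0.12, edgeR adjusted p = 4.1e-07). Input PBS held 1495 to 1670.4 and Input LPS 1656 to 1867 normalised counts, and these ranges overlapped at a log2 fold change of 0.16 (SE 0.12, edgeR adjusted p = 0.429). The effect was larger in the positive fraction by 1.04 on the log2 scale (SE 0.17, edgeR adjusted p = 0.000926). Positive PBS was the lowest of the 4 groups and Positive LPS the highest, and the 2 input groups stood between them.

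Slc11a1, the phagosomal metal transporter NRAMP1 of macrophages and neutrophils, was the iron gene with the largest positive over input difference. Its normalised counts were 1163, 1185, 983 and 1253 in Positive PBS and 4073, 4042.5, 2211, 3438.5 and 4072.5 in Positive LPS. Input PBS held 99.6, 130.4, 120.0 and 109, and Input LPS 274, 279, 188 and 232. The 4 groups did not overlap, and animal 270 had the lowest value of both LPS groups. LPS raised Slc11a1 in the positive fraction by 1.64 (log2, SE 0.16, edgeR adjusted p = 3.25e-07) and in input by 1.08 (SE 0.18, edgeR adjusted p = 0.00046). The difference of 0.55 between these effects was not called (SE 0.24, edgeR adjusted p = 0.201), but it was with the animal as a replicate block (0.55, adjusted p = 0.0242) and when animal 270 was left out of Positive LPS (0.69, adjusted p = 0.0173). Neutrophil markers rose beside it. Of the 10 listed markers 6 were tested and 5 of these rose in each fraction, against 19.0% of all genes in positive and 7.16% in input libraries. The sum of the list went from 146 to 328 normalised counts in Positive PBS to 434 to 1161 in Positive LPS and from 473 to 869.9 to 772 to 1682 in input. Elane, which defines immature neutrophils, was listed at 0 in all positive libraries and in all but 1 of the input libraries. Between the fractions, 4 of the 6 tested neutrophil markers were lower in positive libraries of PBS animals (median -1.88), and none was higher. In LPS animals 3 were lower (median -0.98) and none was higher, whereas Slc11a1 was higher in both (3.32 and 3.88). The neutrophil markers were not alike. S100a8 rose by 4.73 in positive and 2.00 in input libraries, and this difference was called (2.72, SE 0.65, edgeR adjusted p = 0.0141). In LPS animals S100a8 stood at 0.40 over input, which was not called. For the other 5 tested markers the difference of the LPS effect was not called. Animal 270 had the lowest neutrophil sum of Positive LPS (434) and of Input LPS (772). The part of neutrophils in the result was not tested. The monocyte sums were 265 to 451 in Positive PBS and 228 to 554 in Positive LPS.

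Trf encodes transferrin, the carrier of extracellular iron, which in brain is made mainly by oligodendrocytes and the choroid plexus. Positive PBS held 20057, 19638, 18371 and 22881 normalised counts and Positive LPS 13262, 16987, 18969, 14083 and 16834.5. These groups overlapped in the library of animal 270. The gene, in the positive fraction, fell by 0.34 on the log2 scale (SE 0.13, edgeR adjusted p = 0.0435). In input the log2 fold change was -0.29 (SE 0.14, edgeR adjusted p = 0.178), with 11175, 17486, 11758 and 11766 in Input PBS and 10516, 12150, 10349 and 9804 in Input LPS. The call in the positive fraction was lost in 15 of 30 alternatives, with the animal as a replicate block among them (-0.34, adjusted p = 0.0545) and leaving animal 506 out of Positive PBS (-0.27, adjusted p = 0.135).

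Oligodendrocyte markers fell in input, where Trf was not called. There 6 of 8 were called lower after LPS, against 5.26% of all genes. Their sum went from 100919 to 158766 normalised counts in Input PBS to 65046 to 93068 in Input LPS. In the positive fraction 3 of 8 were called lower, against 14.9% of all genes. The sums were 22251 to 29643 in Positive PBS and 19151 to 29166 in Positive LPS. No marker of this list was at 0 in any library. The part of these markers in the Trf result was not tested. Between the fractions the markers and Trf went opposite ways, as PBS animals had all 8 markers lower in the positive fraction, at a median log2 difference of -2.39, while Trf was higher there by 0.63 (SE 0.14, edgeR adjusted p = 0.000966). Choroid plexus markers were lower in 7 of 8, with a median of -1.16. Within Positive LPS, animal 270 had the highest Trf (18969), the highest oligodendrocyte sum (29166) and the highest choroid plexus sum (9365). Animal 266 had the lowest Trf (13262) but the lowest of neither sum (20222 and 7063).

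Of the storage genes, Fth1, the heavy ferritin chain with ferroxidase activity, rose in the positive fraction. Ftl1, the light chain that helps to build the iron core, was not called in either fraction. For Fth1, Positive PBS held 13319, 13379.5, 15991.5 and 13760.1 normalised counts, and Positive LPS 26697.5, 28012, 23072, 27414 and 22746.5. The groups did not overlap, with a log2 fold change of 0.86 (SE 0.11, edgeR adjusted p = 1.09e-05). In input the values ran from 31778 to 46778.5 with PBS and from 38094 to 50313 with LPS, and the log2 fold change was 0.18 (SE 0.12, edgeR adjusted p = 0.354). The effect was 0.68 larger in the positive fraction (SE 0.16, edgeR adjusted p = 0.0144). That difference was not called without animals 506 and 507 (0.77, adjusted p = 0.0505) or with all 18 libraries (0.80, adjusted p = 0.108).

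Ftl1 held 5078, 5274.5, 5791 and 5569 normalised counts in Positive PBS and 6021, 7108, 5683.5, 5219 and 6037 in Positive LPS. These overlapped, with a log2 fold change of 0.15 (SE 0.09, edgeR adjusted p = 0.218). In input the ranges were 6540 to 8174 and 7015 to 8718, and the log2 fold change was 0.09 (SE 0.10, edgeR adjusted p = 0.574). Between genes the chains were compared per kilobase of exon. Fth1 stood at 1.61 ± 0.0779 times Ftl1 in Positive PBS (SD, n = 4) and at 2.67 ± 0.367 times in Positive LPS (SD, n = 5), with no overlap, and at 3.28 ± 0.241 and 3.49 ± 0.0887 times in Input PBS and Input LPS (SD, n = 4 each). Ferritin genes have many processed copies, and reads that match several copies may be split between them. The listed copies Ftl2, Fth-ps2 and Fth-ps3 were at 0 in all 17 libraries. As a listed 0 was not read as absence, these zeros cannot show whether reads were split.

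**Figure D3:**
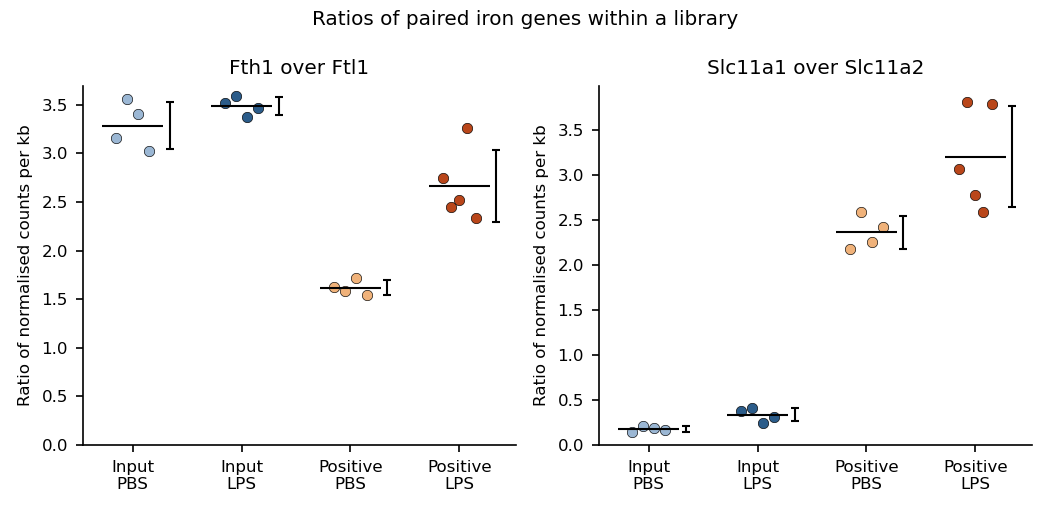
Ratio of normalised counts per kilobase of exon within each library (y axis, linear, from 0) for Fth1 over Ftl1 and Slc11a1 over Slc11a2, by group; lines are means and bars the SD. The Fth1 ratio lies between 1.54 and 1.72 in Positive PBS and between 2.34 and 3.26 in Positive LPS, below the input libraries (3.02 to 3.59) in all but 1 library.

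Both export genes changed in the positive fraction, in opposite directions. Slc40a1, which encodes the exporter ferroportin, fell in the positive fraction. Positive PBS held 526.3, 599, 526.4 and 543 normalised counts, and Positive LPS 45.5, 91.4, 394, 102 and 62.5. The value of 394 was that of animal 270, and all 5 lay below the PBS libraries. The log2 fold change was -1.97 (SE 0.41, edgeR adjusted p = 0.000917), and leaving animal 270 out it was -2.86 (SE 0.19, adjusted p = 4.5e-09). Input PBS held 137, 165.5, 157 and 127 and Input LPS 67.5, 70.9, 70.0 and 81.1, which did not overlap. The fold change of -1.02 there was not called (SE 0.45, edgeR adjusted p = 0.148), but it was when that single positive library was left out of the shared estimate of the spread (-1.02, SE 0.19, adjusted p = 0.00113) and when only the input libraries were fitted (-1.02, adjusted p = 0.000981). The difference between fractions was -0.95 (SE 0.61, edgeR adjusted p = 0.428) and -1.84 without that library (adjusted p = 0.000246). That library was singled out after its Slc40a1 value was seen. The values without it therefore show its weight in the fit and are not an independent test. DESeq2 gave no adjusted p for this gene.

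Markers of macrophages at the brain borders moved beside Slc40a1. In the positive fraction 5 of 8 were called lower after LPS, against 14.9% of all genes. Their sum ran from 5129 to 9930 normalised counts in Positive PBS and from 3468 to 5820 in Positive LPS, with none at 0. In the library of animal 270 that sum was 3876, within the range of the other Positive LPS libraries. Of the 10 microglia markers 5 were called lower and 2 higher, against 14.9% and 19.0% of all genes. Their sum of 184183 in animal 270 lay within the range of its group. The part of either cell type in the Slc40a1 result was not tested.

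Cp encodes ceruloplasmin, the copper ferroxidase that loads exported iron onto transferrin and is made in brain largely by astrocytes. It had the largest rise of the 9 in both fractions. Positive PBS held 919, 788, 868 and 695 normalised counts and Positive LPS 11639, 8684, 2530.3, 6809.5 and 7554, the value of 2530.3 being that of animal 270. Input PBS held 490.7, 487, 493 and 490.0, and Input LPS 4032, 2968, 2006 and 3063. The LPS groups did not overlap the PBS groups, at a log2 fold change of 3.19 for positive (SE 0.31, edgeR adjusted p = 3.05e-07) and 2.62 for input libraries (SE 0.31, edgeR adjusted p = 1.16e-05). The difference of 0.56 was not called (SE 0.41, edgeR adjusted p = 0.496). Astrocyte marker sums were 101372 to 110678 in Input PBS, 117688 to 129326 in Input LPS, 104007 to 153980 in Positive PBS and 113363 to 133778 in Positive LPS. In input 3 of these 8 rose and 1 fell, against 7.16% and 5.26% of all genes. In positive libraries 2 rose and 1 fell, against 19.0% and 14.9%. None was at 0, and the part of astrocyte RNA in the result was not tested. Exons of Hps3 overlap those of Cp on the opposite strand.

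Hmox1 encodes heme oxygenase 1, which frees iron from heme and is a known target of oxidative stress signalling. It rose in both fractions, from 673, 522, 477 and 627 normalised counts in Positive PBS to 1649, 1973.5, 1746, 2263.5 and 1917 in Positive LPS. In input it went from 163, 169, 160.0 and 109 to 338, 379.6, 398 and 292. Neither pair of groups overlapped. The log2 fold changes were 1.73 (SE 0.14, edgeR adjusted p = 4.05e-08) and 1.23 (SE 0.15, edgeR adjusted p = 2.2e-05), and their difference of 0.50 was not called (SE 0.20, edgeR adjusted p = 0.166). The 4 groups followed the order Positive LPS, Positive PBS, Input LPS and Input PBS with no overlap, as for Slc11a1.

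Hamp encodes the hormone hepcidin, which is made mainly in liver. It was listed at 0 in all 8 PBS libraries. Its estimated counts were 6, 14, 7 and 6 in Input LPS and 4, 10, 0, 6 and 2 in Positive LPS, the 0 being that of animal 270. These are a few reads of a library. With the listed zeros taken as they stand, which may not be true zeros, in input a two-sided exact permutation test over libraries gave p = 0.0286, the smallest this design allows, and in the positive fraction p = 0.0873. No fold change is given against groups listed at 0. RefSeq promoter windows (GRCm38.p6), from 250 bases before to 50 after the start, were given for 6 of the 10 genes. In them the STAT3 pattern TTCNNNGAA, which is the same on both strands, was present only in Hamp among those 6, as TTCTTGGAA at chr7:30944118-30944126, starting 97 bases before the start given by RefSeq (position -97), which lies upstream of where the table's coordinates for Hamp end. It was present in 8.3% of 32851 windows. The antioxidant pattern TGACNNNGC, in 12.4% of windows, was present in none of the 6 on either strand. This says only that the pattern is not in those windows, not that a gene lacks such an element elsewhere. Iron genes without a window were not searched.

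The second question was which iron genes were found more in the positive fraction than in input. In PBS animals 8 of 9 were called, 4 higher (Slc11a1, Hmox1, Slc40a1 and Trf) and 4 lower (Fth1, Tfrc, Slc11a2 and Ftl1), where 39.8% of all genes were called, 21.0% higher and 18.8% lower. In LPS animals 8 of 9 were called, 5 higher and 3 lower, where 53.4% of all genes were called, 27.6% higher and 25.8% lower. The median log2 difference was 0.63 and 0.62 over the 9 iron genes and 0.00 and -0.03 over all genes. These comparisons share libraries with the LPS comparisons.

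Slc11a1 was higher in the positive fraction by 3.32 on the log2 scale in PBS animals (SE 0.19, edgeR adjusted p = 5.95e-11) and by 3.88 in LPS animals (SE 0.18, edgeR adjusted p = 3.58e-12). Hmox1 was higher by 1.94 (SE 0.15, edgeR adjusted p = 8.49e-09) and 2.44 (SE 0.15, edgeR adjusted p = 1.14e-10). These 2 genes are known in phagocytes, and both were above input in each of the 8 animals with both libraries. Fth1 was lower, at -1.44 in PBS animals (SE 0.12, edgeR adjusted p = 1.62e-08), and by less in LPS animals (-0.75, SE 0.11, edgeR adjusted p = 1.43e-05). Tfrc was lower in both, at -0.66 (SE 0.10, edgeR adjusted p = 2.26e-05) and -0.55 (SE 0.09, edgeR adjusted p = 5.12e-05). Both genes lay below input in each of these 8 animals.

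Slc11a2 turned sign, from -0.42 in PBS animals (SE 0.12, edgeR adjusted p = 0.00965) to 0.62 in LPS animals (SE 0.12, edgeR adjusted p = 0.00017). Without animals 506 and 507 the PBS value was as large but no longer called (-0.43, adjusted p = 0.0538). By animal its log2 ratio of positive over input lay between -0.58 and -0.34 with PBS and between 0.08 and 0.85 with LPS. Slc40a1 was higher by 1.90 in PBS animals (SE 0.44, edgeR adjusted p = 0.00173) and was not called in LPS animals (0.95, SE 0.43, edgeR adjusted p = 0.0653), where the ratio by animal ranged from -0.57 to 2.49. Leaving animal 270 out of Positive LPS gave 0.06 (adjusted p = 0.802), and leaving out 266 or 507 gave 1.17 or 1.14, both called.

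Trf, Ftl1 and Cp had smaller differences. Trf was higher by 0.58 in LPS animals (SE 0.13, edgeR adjusted p = 0.000866). Ftl1 was lower in both, at -0.40 (SE 0.10, edgeR adjusted p = 0.00268) and -0.35 (SE 0.09, edgeR adjusted p = 0.00337), and the second fell under the fold threshold with the animal as a replicate block (-0.31), when animal 267 was left out of Input LPS (-0.28) and when animal 271 was left out of Positive LPS (-0.30). Cp was higher by 1.30 in LPS animals (SE 0.28, edgeR adjusted p = 0.000638), while its 0.74 in PBS animals missed the threshold (SE 0.30, edgeR adjusted p = 0.0525) and passed it with the block (0.73, adjusted p = 0.00153) and without the Input LPS or Positive LPS library of animal 266 or 270 (adjusted p from 0.00289 to 0.0497).

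**Figure D4:**
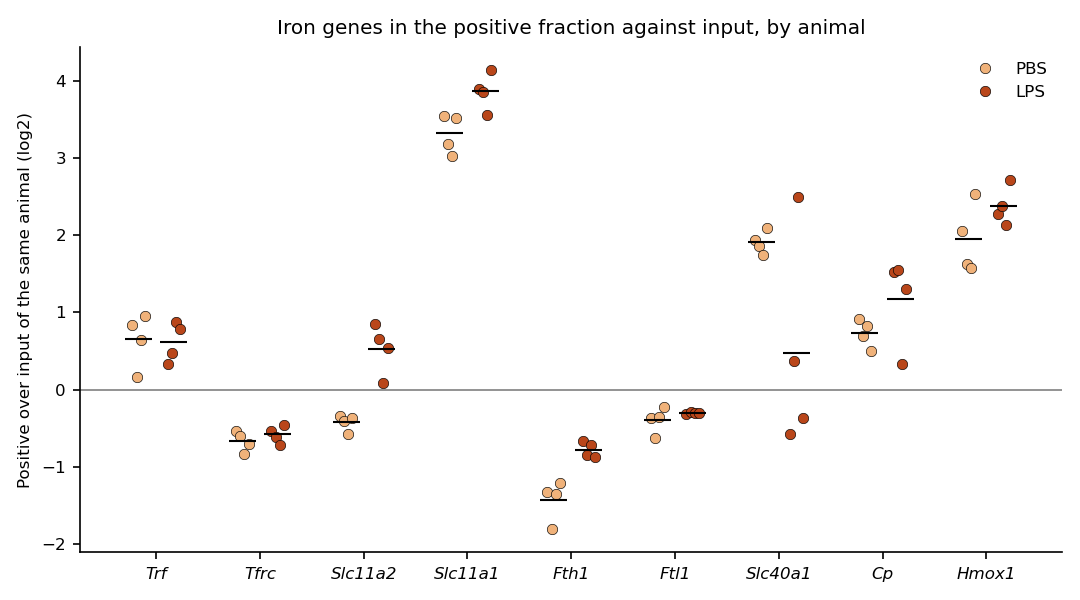
Log2 ratio of the positive fraction over input of the same animal (y axis) for the 9 tested iron genes (x axis), with 4 PBS and 4 LPS animals and lines at the means. Slc11a2 lies below 0 in all PBS animals and above 0 in all LPS animals, and Slc40a1 in LPS animals spreads from -0.57 to 2.49.

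Levels of different iron genes were compared per kilobase of exon. In Positive PBS, Fth1 was the most abundant (9058 ± 814 normalised counts per kb, SD, n = 4), followed by Trf (7362 ± 692) and Ftl1 (5608 ± 325), and these ranges did not overlap. The other genes lay at 493 ± 49.5 (Slc11a1) and below, down to 141 ± 16.9 for Cp. In Positive LPS, Fth1 stood at 16424 ± 1600 (SD, n = 5), and the ranges of Ftl1 and Trf overlapped. There Slc11a1, Cp and Hmox1 lay at 1536 ± 346.5, 1283 ± 569.9 and 1217 ± 151 with overlapping ranges, and Slc40a1 was the lowest of the 9 at 41.3 ± 42.8. In Input PBS, Fth1 was again first at 24514 ± 4442 (SD, n = 4), and Slc11a1 (49.4 ± 5.75) and Slc40a1 (43.5 ± 5.26) were the least abundant and overlapped.

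Other genes of iron metabolism were counted in 5 lists. Of the 14 tested genes of iron uptake and endosomal release with LPS 7 rose in positive libraries and 5 in input, and none fell, where 19.0% of all genes rose and 14.9% fell in positive libraries and 7.16% and 5.26% did so in input. Lcn2, which binds bacterial iron carriers, went from 258 ± 98.3 (SD, n = 4) to 20090.2 ± 6084 (SD, n = 5) normalised counts in the positive fraction, a log2 fold change of 6.30 (SE 0.33, edgeR adjusted p = 2.02e-10), and in input its log2 fold change was 5.48 (SE 0.32, edgeR adjusted p = 3.64e-09). The metalloreductase Steap4 rose by 4.49 in positive and 5.07 in input libraries, and the ferritin receptor Scara5 by 2.12 and 2.09. This list and the neutrophil markers share Ltf, and the neutrophil sums given beside Slc11a1 moved with these genes as well. The list had a median log2 difference of 0.26 in positive libraries and 0.28 in input.

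None of the 6 tested storage partners and export oxidases was called in either fraction, with medians of 0.01 and 0.02. This list holds Ncoa4, the receptor for ferritin breakdown, and the ferroxidase Heph, whose log2 fold changes in the positive fraction were -0.06 and 0.07. Of the 17 tested iron regulatory proteins and genes of hepcidin control 2 rose and 2 fell in the positive fraction (33.8% of all genes called), a smaller share than over all genes, and 3 rose and 2 fell in input (12.4%). Stat3, which carries the interleukin 6 signal, rose by 1.03 (SE 0.12, edgeR adjusted p = 3.66e-06) and 1.10 (SE 0.13, edgeR adjusted p = 9.83e-06). Bmp6, a known inducer of hepcidin, changed by -1.01 (SE 0.14, edgeR adjusted p = 2.37e-05) and -0.91 (SE 0.15, edgeR adjusted p = 0.000297). Aco1, the messenger of iron regulatory protein 1, rose in the positive fraction from 969.6 ± 62.3 to 1393 ± 117 normalised counts (log2 fold change 0.52). Il6ra, a subunit of the interleukin 6 receptor, rose in input by 0.86.

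Of the 14 tested genes of heme scavenging, transport and breakdown 4 rose and 1 fell in the positive fraction (33.8% of all genes called), and 1 rose in input (12.4%), shares near or below those of all genes. Hp, the hemoglobin-binding haptoglobin of plasma and neutrophils, rose in both, by 5.79 (SE 0.58, edgeR adjusted p = 4.26e-07) and 2.57 (SE 0.53, edgeR adjusted p = 0.0026). Its normalised counts were low with PBS, at 15.9 ± 10.9 in the positive fraction and 24.2 ± 9.21 in input (SD, n = 4 each). The fold changes rest on these low starting values. In the positive fraction the heme exporter listed as Mfsd7b (Flvcr1) rose by 0.54 and its relative Mfsd7c (Flvcr2) changed by -0.85. Of the 19 tested genes of mitochondrial iron, heme synthesis and iron-sulfur clusters 5 rose and 1 fell in the positive fraction, and 1 rose and 1 fell in input, shares close to the 33.8% and 12.4% of all genes. Here the mitochondrial iron importer Slc25a28 rose by 0.54 in positive and 0.43 in input libraries, and Uros, an enzyme of heme synthesis, changed by -0.54 and -0.52. These lists had positive fraction medians of 0.13 (regulation), 0.20 (heme) and 0.09 (mitochondria), and 0.18, 0.17 and -0.06 for input libraries.

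**Figure D5:**
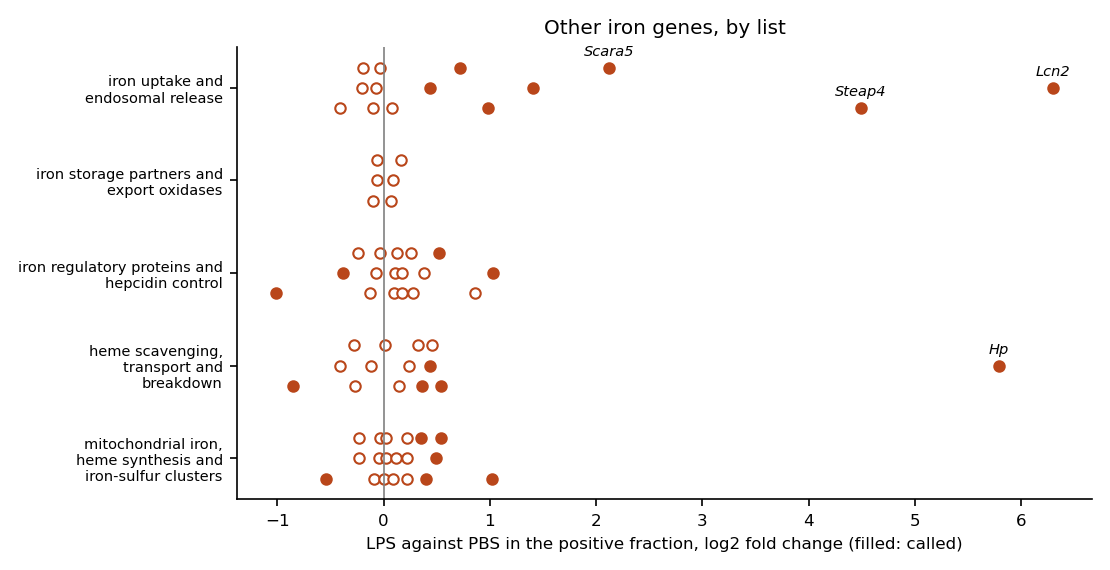
Fitted log2 fold change of LPS against PBS in the positive fraction (x axis) for the tested genes of the 5 other iron lists (y axis), 1 point a gene, filled where called; points are staggered for legibility. Lcn2 (6.30), Hp (5.79), Steap4 (4.49) and Scara5 (2.12) lie farthest to the right, and no storage partner was called.

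Genes with the most similar pattern over the 17 libraries were named by Pearson's r of log2 levels, as a description only, since the libraries share animals, fractions and treatments. Slc11a1 went most closely with Arhgdib, Samsn1 and Ptpn6 (r = 0.998, 0.997 and 0.996), Hmox1 with Ctsl, Mcl1 and Il4ra (0.99 each) and Cp with C3, Ch25h and Ikbke (0.99, 0.98 and 0.97). Slc11a2 went with Nfkbiz, Utp20 and Heatr3 (0.96, 0.94 and 0.94), Slc40a1 with Cxxc5, Sirpa and Rph3a (0.96, 0.94 and 0.93), Trf with Pmp22, Rgs2 and Reep5 (0.95, 0.95 and 0.94) and Tfrc with Lbp, Tmem18 and Plce1 (0.95 each). Fth1 was nearest to 1500012F01Rik, Kctd9 and Pcolce2 (0.93 each) and Ftl1 to Loxl2, Itih3 and Timp4 (0.91, 0.91 and 0.90).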

How the data were processed

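RNAseq of input and positive TRAP fractions was analysed from estimated counts per gene, which the authors deposited after trimming and aligning reads to mm10 in Strand NGS. Of the nonzero values 81.7% were not whole, and all were rounded. The deposited log2 values, which per the file headers are normalized, match log2 of counts scaled over all 18 libraries (575 genes without a 0, per the labels DESeq) less a constant per gene, and were used as an alternative. The input library of animal 271 (1250 counts) was left out. All value columns were assigned to a sample.

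Size factors were medians of ratios over 15766 genes (0.764 to 1.32). Genes with over 20 normalised counts in every library of at least 1 group were tested with edgeR 4.0.16 (quasi-likelihood, R 4.3.3), fitting each group's mean, which left 13 residual degrees of freedom. All groups shared the estimate of the spread. A call needed a Benjamini-Hochberg adjusted p under 0.05 over all 14804 genes tested and a log2 fold change beyond 0.32 in size, the study's fold threshold. Adjusted p-values are edgeR's unless another tool is named. The SE is for the log2 fold change. For edgeR it was derived from the test, as the size of the log2 fold change divided by the square root of the F statistic. Scripts were tested on simulated data. Alternatives used DESeq2 1.42.0 and limma 3.58.1, other scalings and filters, other sets of libraries, sex, and the animal as a replicate block.

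The iron genes and lists were chosen with earlier results of these data known. Of the other lists the text names, in each LPS comparison, up to 3 called genes with the largest change whose mean reached 50 normalised counts, and Ncoa4 and Heph were named after their values were seen. Another gene picked by this rule of size is not reported here. Likeness was sought over tested genes averaging 100 or more normalised counts. The listed symbols Hjv, Erfe, Chil3, Hbb-bs, Hbb-bt and Hbb-b2 were not matched. Input and positive libraries with one number come from the same animal, and their deviations from the group means correlated at 0.16 to 0.52 in all 8 pairs. The block was a fixed effect in edgeR for comparisons between fractions, and in limma (voom, correlation 0.45) for LPS effects, with the adjusted p of that tool. Library totals of 22968834 to 35123335 counts set the precision. Lengths and sequences came from GENCODE M21 and RefSeq. The libraries are directional, and the strand setting used in counting is not given in the sources used here.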

Additional observations from a re-analysis of the deposited data

Results flagged for a closer look

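In 38 combinations of gene and group, 5 libraries lay far from the rest of their group by Dixon's criterion, which chance meets in about 1 of 20 groups. The Positive LPS library of animal 270 held 394.3 normalised counts of Slc40a1, above the other 4 libraries (45.5 to 102). The Input PBS library of animal 272 held 17486 of Trf, and it had the highest sum of oligodendrocyte markers in its group (158766). The others were 15991.5 of Fth1 in the Positive PBS library of animal 273, 109 of Hmox1 in the Input PBS library of animal 506 and 12.9 of Hamp in the Input LPS library of animal 267, which stood for 14 counts.

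Both genes whose LPS effect differed between the fractions were noted by the test of the difference. The effect on Fth1 was larger in the positive fraction by 0.68 on the log2 scale (edgeR adjusted p = 0.0144), and that on Slc11a2 by 1.04 (edgeR adjusted p = 0.000926). Slc11a2 was above its PBS range in 5 of 5 Positive LPS libraries, and Fth1 in 5 of 5.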

How the results depend on the processing

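Under 30 alternatives the iron genes gave 1336 values, of which 1291 kept their direction and side of the threshold, 21 lost a call, 17 gained one and 7 changed sign. The sign changes were of uncalled differences between fractions. For Ftl1 that difference was -0.01 with total count scaling, and also when animal 267 was left out of Positive LPS or animal 272 out of Input PBS, with 0.12 as the highest value over libraries left out. For Trf it was 0.01 leaving animal 266 out of Positive LPS, 267 out of Input LPS, 268 out of Input PBS or 506 out of Positive PBS, and -0.22 at the lowest. The Trf call in the positive fraction was lost with adjusted p from 0.0512 to 0.17, among others with TMM scaling, the deposited log2 values, sex as a covariate and leaving animal 266 out of Input LPS, animals 266, 267, 271 or 507 out of Positive LPS, or 268, 272 or 506 out of Positive PBS. Slc11a2 against input in PBS animals was lost without animals 506 and 507 (-0.43, adjusted p = 0.0538). DESeq2 set no adjusted p for Slc40a1, which is out of these numbers.

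Without animals 506 and 507, 1077 genes were called for LPS in input (main 1839) and 323 for the difference (main 1018). With the replicate block 1915 were called for the difference. Of the iron genes 1 was called for the difference with all 18 libraries and 1 without animals 506 and 507, against 2. Without the libraries of animal 270, which was chosen after seeing the data, 4 were called. The number of all genes in that last refit is not given here. Leaving out 1 library at a time gave 2 to 4 iron genes and 749 to 1263 genes for the difference, 7 to 8 and 4432 to 5121 for LPS in the positive fraction, 4 to 5 and 1454 to 1978 in input, and 8 to 9 and 5297 to 6067, and 7 to 9 and 7447 to 8129, for positive against input in PBS and LPS animals. The block changed no calls of iron genes other than those given for Trf, Slc11a1, Ftl1 and Cp. The cause of these changes was not tested. At these totals Hamp, with 14 counts at most, limits what can be said of it.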

Other observations

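Markers of red blood cells, which carry most of the body's iron, were lower in input after LPS in 3 of 4 tested genes, against 5.26% of all genes. Their sum ran from 1558 to 5121 normalised counts in Input PBS and from 1282 to 2051 in Input LPS. In the positive fraction none of the 4 was called, with sums of 286 to 825.5 in Positive PBS and 213 to 523 in Positive LPS. Hamp2, the second hepcidin gene, stayed at or below 3.79 normalised counts in each of the 17 libraries. The mitochondrial ferritin Ftmt was at 0 in all input libraries and in 7 of the 9 positive libraries.

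Among the other marker lists, none of 8 neuron markers was called in input and 3 of 8 were called lower in the positive fraction. Endothelial markers had 1 higher and 3 lower of 8 in the positive fraction and 2 higher and 1 lower in input. Choroid plexus markers had 1 lower of 8 in the positive fraction and 1 higher in input. Of 3 tested monocyte markers 1 was called lower in the positive fraction and none in input.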
